A study of Mus musculus with 3 samples.

Results

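HES and HEY proteins are transcriptional repressors that act at the end of the Notch pathway, and 6 of the 21646 protein-coding genes set against the data encode the members described here, Hes1, Hes5, Hes6, Hey1, Hey2 and Heyl. The members were chosen by name. For every gene and replicate the strongest peak no more than 1 kb from a start of one of its protein-coding transcripts was taken as its promoter peak. Peaks farther than 1 kb from every such start site, and nearest to the gene's own within 100 kb, were taken as its distal peaks. Accessible chromatin had been mapped by DNase-seq, in which DNase I cuts open chromatin. There is 1 group with 3 biological replicates and no contrast between conditions, and the cells were primary Müller cells, the radial glia of the retina, from mice of the B6NCrl strain aged 12 days with males and females pooled. The labels name no sort, treatment or time in culture, and their protocol is one written for cultured cells. All replicates carry the same donor label, and nothing states that they came from separate animals, so the spread between them may be technical.

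When a Notch receptor binds a Delta or Jagged ligand on a neighbouring cell, proteases release its intracellular part, which joins the DNA-binding protein RBPJ and Mastermind in the nucleus and switches on Hes and Hey genes. Their basic helix-loop-helix Orange proteins recruit corepressors such as the TLE proteins and hold down proneural genes. In the retina Notch signalling keeps progenitors undifferentiated and favours Müller glia over neurons, and Hes1 and Hes5 are among the genes known for this.

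Replicates 1, 2 and 3 held 300290, 281205 and 184567 deposited peaks. Read depth is unknown. All 8 Müller glia markers examined, Rlbp1, Glul and Sox9 among them, had a promoter peak in every replicate, and none of 6 rod markers had one in any. All 8 microglia and macrophage markers had a promoter peak in replicates 1 and 2 and none in replicate 3, with summed scores of 614, 580 and 0. Endothelial markers had 5, 5 and 4 of 6, with summed scores of 452, 405 and 290. Sums were 1045, 1002 and 947 for the Müller glia markers and 290, 248 and 297 for the astrocyte markers. The scores are on no scale shared between replicates. Markers of pericytes and mural cells had 4 of 5 and of astrocytes 4 of 4 in every replicate. Markers of neurons had 4 of 7, of oligodendrocytes 1 of 4 and of pigment epithelium 2, 2 and 1 of 4. Replicate 3 thus differed from the others in its number of peaks and in the macrophage markers. It also had fewer endothelial and pigment epithelium markers with a promoter peak. The part of these differences in the results below was not tested.

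All 6 members had an accessible promoter in every replicate. A promoter site found in all 3 replicates, called reproducible, lay within 1 kb of a start site at 6 of 6 members, beside 67.1% of all genes. A promoter peak was found at 72.7%, 71.8% and 69.7% of all genes in replicates 1, 2 and 3. At least 2 reproducible promoter sites were found at Hes1 with 3, Hes6 with 3 and Hes5 with 2, beside 36.4% of all genes, and Hey1, Hey2 and Heyl had 1 each. Promoter hotspots, the wider regions that the authors called around peaks, reached the cap of 100 in −log10 q in all 3 replicates at every member, beside 60.5% of all genes, so this value does not separate the members.

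The members fell into a stronger and a weaker set by the score of the promoter peak, the authors' own value for each peak, a whole number that ends at 150. Hey2, Hes1, Hes6 and Hey1 stood above the median of all genes with a promoter peak in every replicate, and Heyl and Hes5 stood below it. Those medians were 123, 115 and 113 in replicates 1, 2 and 3. Means were 140 ± 0.577 for Hey2, 139 ± 10.4 for Hes1, 131 ± 5.57 for Hes6 and 131 ± 4.36 for Hey1, and 90.3 ± 11.1 for Heyl and 90 ± 9.17 for Hes5 (SD, n = 3). The order within either set changed between replicates, whereas the sets stayed apart in each. The lowest score of the stronger set and the highest of the weaker set were 134 and 102 in replicate 1. They were 132 and 80 in replicate 2, and 125 and 98 in replicate 3. No test was run on these scores, which are on no scale shared between replicates, so the means and SDs describe raw values alone.

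**Figure D1:**
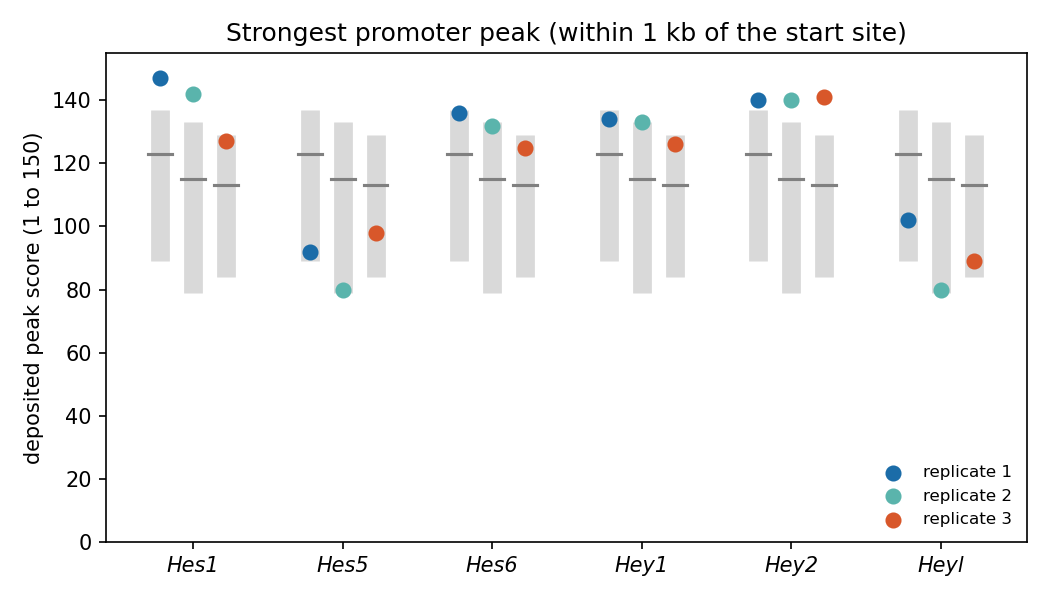
Deposited score of the strongest promoter peak (vertical axis, 1 to 150) of each HES or HEY gene in replicates 1, 2 and 3 (points); grey bars span the lower to the upper quartile of all genes with a promoter peak in that replicate and grey lines mark the median. Hes5 and Heyl lie between 80 and 102, below the median in every replicate, and the other members between 125 and 147, above it.

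The sequences below are those of some of these promoters and of some leading distal sites. In the set of RefSeq (GRCm38.p6) promoters used here, entries were found for Hes5, Hes6 and Hey2. It held none for Hes1, Hey1 and Heyl, so their promoters were not searched for motifs. Each promoter is the 250 bases before the RefSeq start, written 5′ to 3′ along the gene, with capitals for the core of the RBPJ site, TGGGAA or its reverse complement TTCCCA. Hes5 lies on the forward strand at chr4:154960673-154960922. Hes6 lies on the reverse strand at chr1:91413223-91413472 and Hey2 on the reverse strand at chr10:30842784-30843033, where the RefSeq start is 18 bp inside the GENCODE one.
Hes5 promoter: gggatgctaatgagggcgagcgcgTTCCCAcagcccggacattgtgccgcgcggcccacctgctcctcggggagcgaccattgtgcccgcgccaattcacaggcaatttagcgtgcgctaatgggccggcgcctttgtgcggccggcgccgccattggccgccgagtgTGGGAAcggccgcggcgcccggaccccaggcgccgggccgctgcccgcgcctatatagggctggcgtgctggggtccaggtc
Hes6 promoter: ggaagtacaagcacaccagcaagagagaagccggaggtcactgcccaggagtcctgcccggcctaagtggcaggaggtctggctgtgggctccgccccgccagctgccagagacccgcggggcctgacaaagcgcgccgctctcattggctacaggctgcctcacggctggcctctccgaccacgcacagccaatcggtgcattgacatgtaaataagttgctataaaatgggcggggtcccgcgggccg
Hey2 promoter: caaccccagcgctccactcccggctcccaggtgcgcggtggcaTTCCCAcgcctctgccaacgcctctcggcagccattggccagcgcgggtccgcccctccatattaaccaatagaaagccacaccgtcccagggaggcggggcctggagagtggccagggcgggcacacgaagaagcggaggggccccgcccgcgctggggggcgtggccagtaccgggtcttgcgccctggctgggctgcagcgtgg
The Hes5 window holds 2 cores and the Hey2 window 1, while the Hes6 window holds none. A core was found in 21.2% of 20054 RefSeq promoter windows of this length, and at least 2 in 2.83%.

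The strongest distal sites of Hes1, Hes5 and Hey2 each hold a core as well and are printed for that reason. Those of Hes6, Hey1 and Heyl hold none, which makes 3 of 6. Over all distal sites, of any strength, the share was 17.1% in their central 150 bp, so the sets compared differ in strength. The 3 sites with a core are also among the member sites counted further below. They are given on the forward strand of mm10, at chr16:30008996-30009145 for Hes1, chr4:154958356-154958525 for Hes5 and chr10:30844396-30844585 for Hey2.
Hes1 distal site, 56270 bp upstream: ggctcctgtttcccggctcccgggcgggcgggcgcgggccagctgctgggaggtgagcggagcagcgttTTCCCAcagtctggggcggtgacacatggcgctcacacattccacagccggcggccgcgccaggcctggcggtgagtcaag
Hes5 distal site, 2483 bp upstream: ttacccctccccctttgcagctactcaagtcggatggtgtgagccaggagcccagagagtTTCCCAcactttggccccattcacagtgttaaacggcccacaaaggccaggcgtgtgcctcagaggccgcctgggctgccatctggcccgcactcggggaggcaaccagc
Hey2 distal site, 1689 bp upstream: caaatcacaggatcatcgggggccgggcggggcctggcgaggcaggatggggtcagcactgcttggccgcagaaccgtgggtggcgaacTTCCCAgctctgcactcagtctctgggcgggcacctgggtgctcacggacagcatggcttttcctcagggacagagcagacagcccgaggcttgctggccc
At Hes1 and Hes5 the core is part of the longer match GTGGGAA (here as its reverse complement TTCCCAC), and at Hey2 it is not. A match in letters describes the sequence and does not show a bound factor.

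Hes1, the best known Notch effector, which is expressed in cycling progenitors and in Müller glia, had the widest accessible region of the members. The gene lies at chr16:30064384-30067796 on the forward strand with its coding transcript starting at 30065340, and no other protein-coding gene starts within 100 kb, the nearest being Cpn2 at 202159 bp. Its promoter peak scored 147, 142 and 127 in replicates 1, 2 and 3, at percentiles 97.1, 91.5 and 71.8 of genes with a promoter peak. Replicate 3 was thus the low one, while staying above its own median. The reproducible site, chr16:30065156-30065345, reaches over the start, and weaker sites stand 360 and 970 bp downstream, in introns by the annotation of their centres. The promoter hotspot of Hes1 was 4582, 4474 and 4734 bp wide, against medians of 1010, 794 and 1134 bp over all genes.

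Hes1 stood among the genes with the most distal peaks. It had 61, 65 and 33 in replicates 1, 2 and 3 (53.0 ± 17.4, SD, n = 3), at percentiles 99.3, 99.5 and 98.9 of all genes. Reproducible distal sites numbered 28, at percentile 99.1, and 53 without replicate 3. Hes1 also has a long stretch of genome of its own, 198000 bp, so that its density of 14.1 reproducible distal sites per 100 kb stood at percentile 91.3. Of 74 distal regions merged over the replicates, 28 (37.8%) were in all 3 and 25 (33.8%) in replicates 1 and 2 alone, beside 39.8% and 27.2% for the 216468 distal regions of all genes.

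By median score the Hes1 sites were strongest within 10 kb of the start, although the strongest single site by mean percentile lay 56270 bp upstream. Upstream of the start lay 18 and downstream 10. The 11 sites within 10 kb had median scores of 123, 115 and 107, the 11 farther upstream 100, 97 and 62, and the 6 farther downstream 79.5, 61.5 and 51. This order held in each replicate. As median percentiles among the distal peaks of a replicate, the sites within 10 kb stood at 95.7, 95.3 and 96.0 and those farther upstream at 87.2, 90.0 and 74.99. Single sites departed from these medians, and the one 8150 bp upstream, within 10 kb, stood at 95.7, 96.5 and 76.6. Between 30070405 and 30114516, a stretch of 44.1 kb downstream, there was no reproducible site.

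The strongest distal site by mean percentile over the replicates, 56270 bp upstream, scored 140, 143 and 137. It lies in an intron of the long noncoding RNA 4632428C04Rik, 329 bp from its start. The site printed above therefore sits near a start of a gene that is not protein-coding, and its GC content over the central 150 bp was 72.0%. Next came a site 1160 bp upstream, which is also the nearest to the promoter, with scores of 144, 134 and 139. It stands 119 bp from the start of a noncoding Hes1 transcript, and when such starts were counted as promoters the Hes1 promoter score of replicate 3 was 139 in place of 127. A site 5820 bp upstream scored 127, 134 and 126 and is intergenic. The farthest, 92940 bp downstream, scored 66, 57 and 41. In all, 9 of the 28 sites lie in noncoding transcripts (Gm1968, 4632428C04Rik or 9030404E10Rik) and 19 are intergenic. For 17 of the 28 the nearest start of any kind was that of a noncoding gene, and with starts of all genes counted 11 remained nearest to Hes1.

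**Figure D2:**
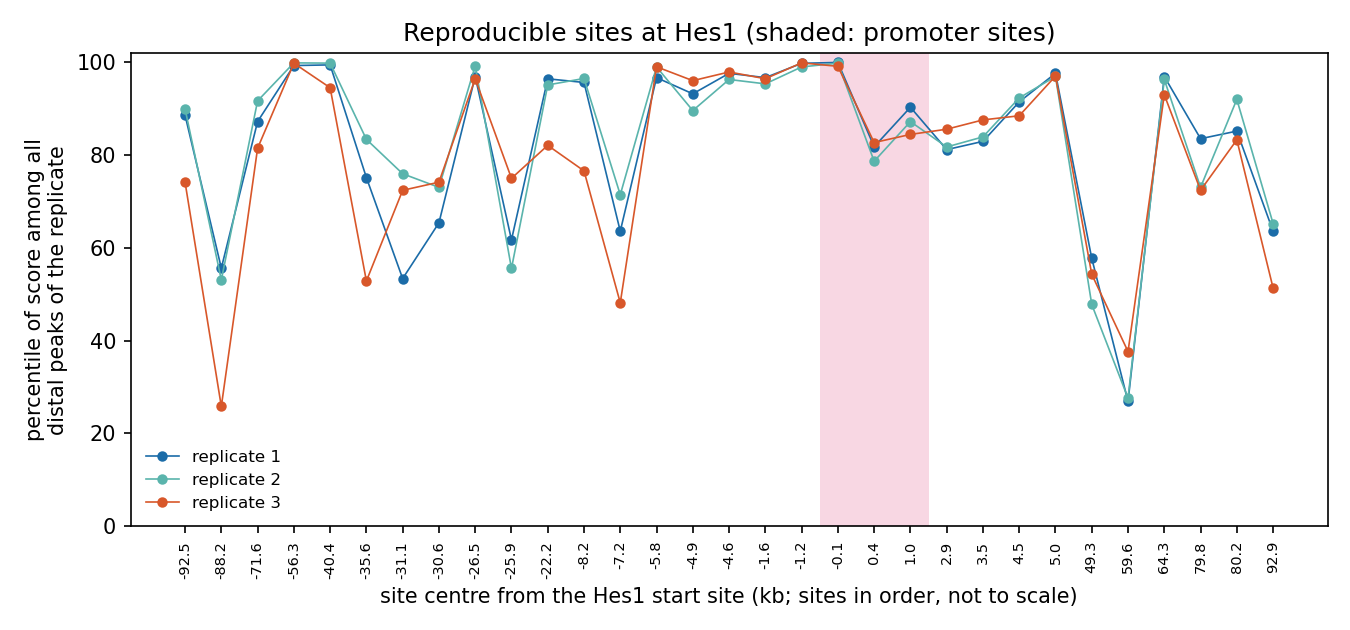
Percentile of the score of each reproducible Hes1 site among all distal peaks of the same replicate (vertical axis) for sites in order along the gene (horizontal axis, kb from the start, not to scale); colours are replicates and shading marks the 3 promoter sites. The sites 56270 and 1160 bp upstream lie near the top in all 3 replicates, at 99.3, 99.9 and 99.8 and at 99.8, 99.0 and 99.9. The site 40400 bp upstream, at 99.4, 99.8 and 94.5, is above the former in replicate 1 and the latter in replicate 2. Replicate 3 is lower than both others at 14 of the 28 distal sites, near and far ones among them.

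Hes5, which acts beside Hes1 in retinal progenitors and is a classic direct target of RBPJ, had a weak promoter peak and few distal sites. The gene lies at chr4:154960923-154962371 on the forward strand, 3200 bp from the start of Pank4. Its promoter peak scored 92, 80 and 98, at percentiles 26.1, 25.7 and 34.5, with replicate 3 the highest. The site, chr4:154960656-154960825, ends 98 bp before the start. A second reproducible promoter site, 727 bp downstream in a coding exon, scored 55, 56 and 60. Of the RBPJ cores printed above, the one whose first base is 226 bases before the start lies inside the accessible site and the one at 82 lies outside it. The window is rich in GC, at 71.6% (percentile 90.5 of promoter windows), and its ratio of observed to expected CpG stood at percentile 92.1.

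Distal peaks of Hes5 numbered 3, 6 and 5 (4.67 ± 1.53, SD, n = 3). Reproducible ones numbered 2, the median over all genes, and 4 without replicate 1. The nearer and stronger, 2483 bp upstream, scored 106, 96 and 92, above the promoter peak in replicates 1 and 2 and below it in replicate 3. The farther one, 14363 bp upstream, scored 94, 94 and 86. Both are intergenic, and both hold the longer match GTGGGAA or its reverse complement. The stretch given to Hes5 is short, 15780 bp, which puts its density at 12.7 sites per 100 kb and percentile 88.8.

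Hes6, which unlike Hes1 promotes neuronal differentiation and counteracts Hes1, had a strong promoter and, with the promoter window of 1 kb, almost no distal sites. The gene lies at chr1:91411483-91414038 on the reverse strand, and its coding transcript starts at 91413222. Its promoter peak scored 136, 132 and 125, at percentiles 71.6, 73.6 and 68.2. The site, chr1:91413236-91413385, ends 14 bp from the start. Its letters, within the promoter printed above, include TATAAA at 28 to 23 bases before the start, a TATA box match that 11.2% of promoter windows hold somewhere on either strand. A second site 1038 bp upstream scored 105, 105 and 97 and stands 138 bp from a start at 91414038 that GENCODE gives to a noncoding transcript and RefSeq lists as a start of Hes6. The third, 812 bp downstream in a coding exon, scored 50, 30 and 24.

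Distal peaks of Hes6 numbered 2, 1 and 1. Its single reproducible distal site, 15598 bp upstream, scored 94, 84 and 46 and lies in an intron of Per2, a clock gene, so that the rule of the nearest start gives Hes6 a site inside its neighbour. At 3.54 sites per 100 kb in 28265.5 bp, Hes6 had the lowest density of the members, at percentile 44.3. With a promoter window of 500 bp it had 3 reproducible distal sites in place of 1.

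Hey1 is a Notch effector of the HEY branch that acts in vessels and heart and is also expressed in neural progenitors. It lies at chr3:8663359-8667256 on the reverse strand. Its promoter peak scored 134, 133 and 126, at percentiles 67.6, 75.4 and 69.96, and its site, chr3:8667056-8667245, begins 11 bp downstream of the start. Distal peaks numbered 22, 18 and 12 (17.3 ± 5.03, SD, n = 3), with 12 reproducible, at percentile 91.7. Because the gene stands alone in 176948 bp, its density of 6.78 per 100 kb was closer to the middle of all genes, at percentile 65.9.

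The strongest distal site of Hey1 lies inside the gene, 2486 bp downstream in a coding exon, with scores of 100, 88 and 101. The nearest, 1446 bp downstream in an intron, scored 44, 32 and 35, so the closest site was among the weakest. Upstream, 8 sites were spread from 18124 to 99894 bp. The farthest scored 65, 39 and 64 and lies just inside the limit, its edge at 99740 bp. A further site just beyond it, at 100420 bp, scored 79, 64 and 78 and was not counted.

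Hey2, a repressor best known from artery and heart development, also takes part in forming Müller glia in the mouse retina. It lies at chr10:30832359-30842801 on the reverse strand. Its promoter peak scored 140, 140 and 141, the most even raw scores of the members. Scores were lower in general in replicates 2 and 3. Among genes of the same replicate its percentile went from 80.7 to 88.0 and 95.2, a wider range than that of every other member but Hes1. In replicate 3 Hey2 stood first among the members, ahead of Hes1. The site, chr10:30842816-30842985, ends 15 bp from the GENCODE start, and the RBPJ core of the printed promoter lies outside it but for its last base, at the upstream edge. The promoter hotspot was 3002, 1709 and 1851 bp wide.

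Distal peaks of Hey2 numbered 20, 19 and 16 (18.3 ± 2.08, SD, n = 3), the smallest relative spread of the members with 10 or more, and 10 were reproducible, at percentile 88.5. The strongest, 1689 bp upstream, scored 97, 93 and 102, and the nearest, 1139 bp upstream, scored 71, 52 and 59. The other sites were weak. The median over the 10 was 58.5, 52 and 33.5, against 78, 65 and 45 for reproducible distal sites of all genes, and the farthest, 81519 bp upstream, scored 61, 55 and 29. Of the 10 sites 9 are intergenic.

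Heyl, the third HEY gene and one expressed in mural cells of vessels, had a weak promoter. With all peaks used it had the most distal sites per length of the 6 members. It lies at chr4:123233556-123249875 on the forward strand. Its promoter peak scored 102, 80 and 89, at percentiles 31.6, 25.7 and 27.9, and the site, chr4:123233636-123233785, begins 80 bp downstream of the start. The promoter hotspot, 734, 683 and 469 bp wide, was narrower than the median in each replicate. Of 5 mural cell markers 4 had a promoter peak in every replicate, and their part in the values of Heyl was not tested.

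Distal peaks of Heyl numbered 12, 12 and 7 (10.3 ± 2.89, SD, n = 3). Reproducible ones numbered 6, and 11 without replicate 3. In 38660.5 bp this makes 15.5 per 100 kb, at percentile 93.2, beside 14.1 for Hes1. With the strongest 50% of peaks Heyl kept 4, Hes1 23 and Hes5 2, so Heyl no longer had the most per length. With starts of noncoding transcripts of coding genes counted, Heyl also had 4. The strongest, 15744 bp downstream in the untranslated part of the gene's own end, scored 105, 99 and 75, while one 18824 bp downstream, also the farthest, scored 92, 76 and 98. The nearest, 5686 bp upstream, scored 96, 75 and 39. Replicate 3 was the low one at 4 of the 6 sites by percentile among distal peaks and the high one at 2.

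**Figure D3:**
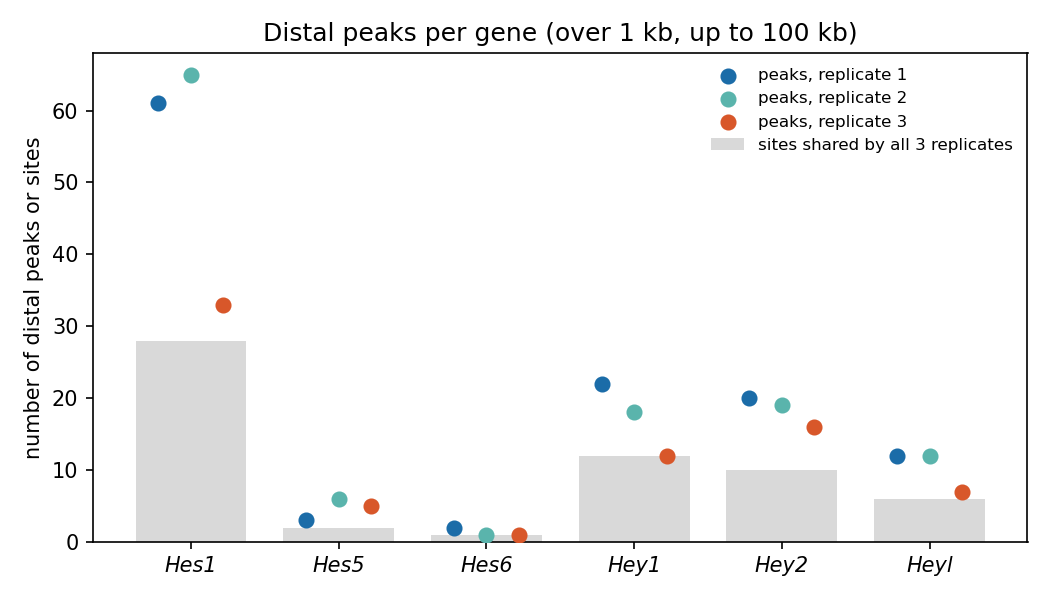
Number of distal peaks (vertical axis) of each gene in replicates 1, 2 and 3 (points) and the number of distal sites found in all 3 (grey bars). Hes1 stands apart with 61, 65 and 33 peaks and 28 shared sites, and Hes6 has 2, 1 and 1 peaks and 1 shared site.

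Over the members together 59 distal sites were reproducible, with a median of 8 per gene, against a median of 2 over all genes. At least 1 such site was found at 6 of 6 members, beside 69.8% of all genes, and at least 10 at Hes1, Hey1 and Hey2, beside 12.5%. Hey2 stands exactly at 10, and had 8 with equal numbers of peaks from the replicates, 9 with hotspots and 8 with a promoter window of 2500 bp. Hes1 alone gave 28 of the 59. Without replicate 3 the total was 99 and the median 13. Within 50 kb of a start the total was 39, and with starts of noncoding genes counted it was 24. Hey1 went from 12 to 5 and 2 under those settings and Hey2 from 10 to 6 and 4, while the strongest 50% of peaks left 2 at Hey2.

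**Figure D4:**
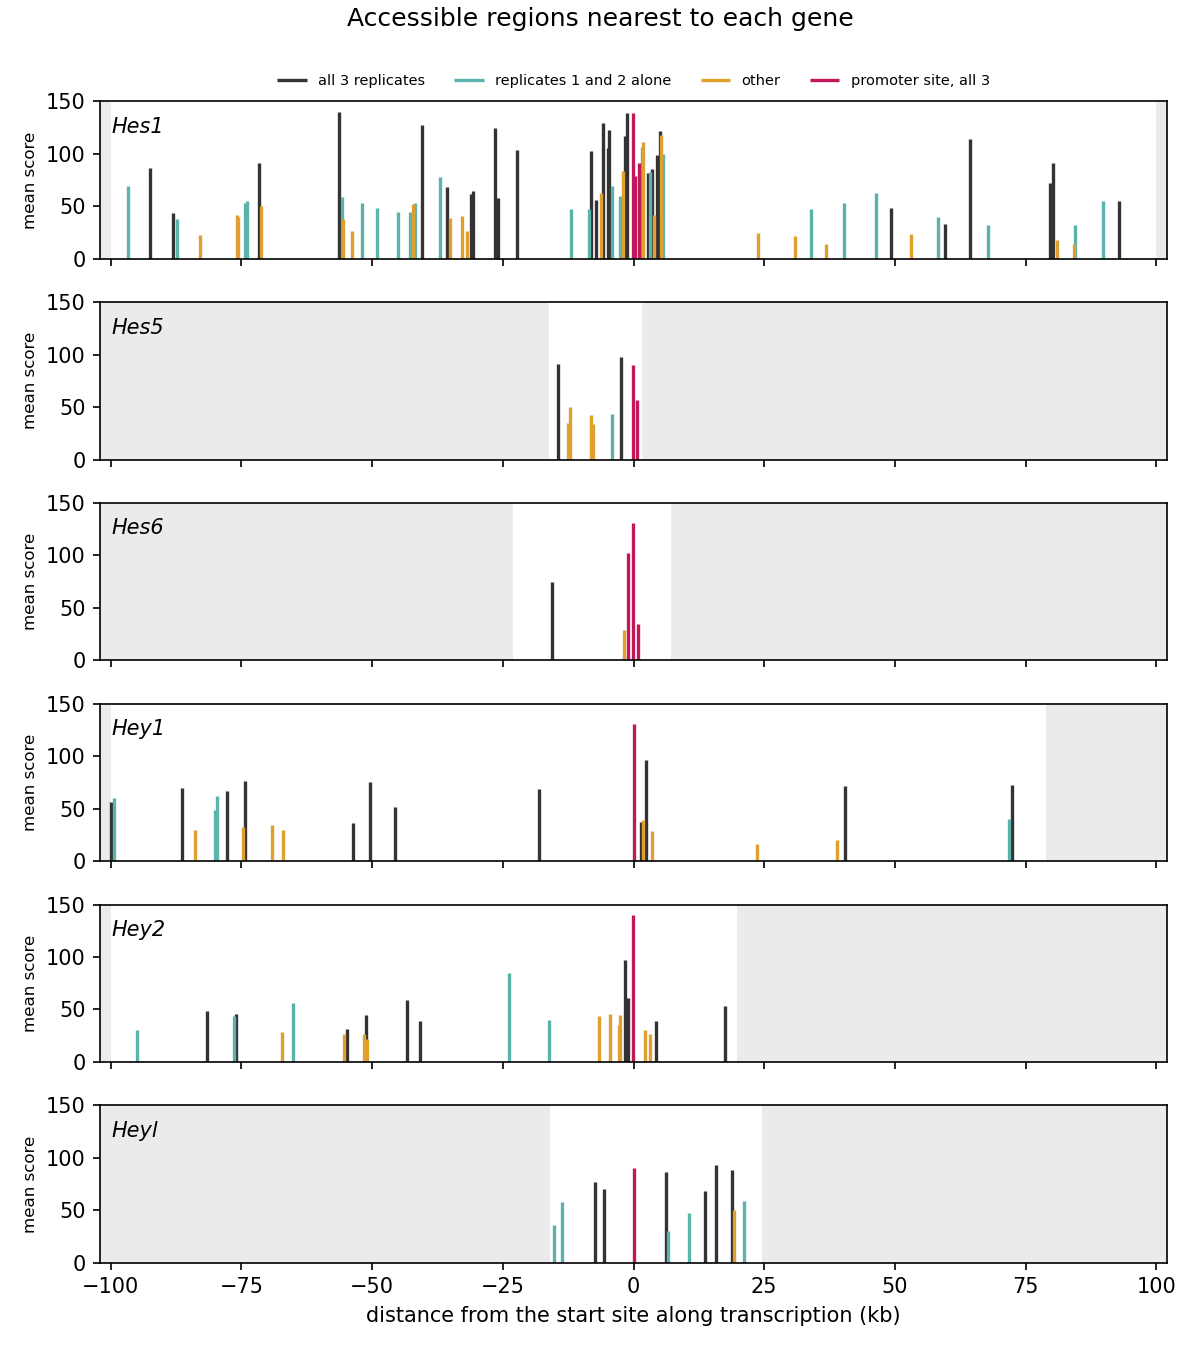
Accessible regions given to each gene (bars) by distance from the start along transcription (horizontal axis, kb) and by mean deposited score over the replicates that hold the region (vertical axis); colour gives the replicates, and grey marks stretches outside what is given to the gene. Hes1, Hey1 and Hey2 have long stretches with sites far upstream, while Hes5, Hes6 and Heyl are hemmed in by other genes.

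Near the limits of the rule, the Hes6 site 1038 bp upstream counted as promoter because its edge is 954 bp from the start. Just outside, the Hey2 site with its edge at 1035 bp and the Hes1 site with its edge at 1075 bp counted as distal. Beyond 100 kb, but with a member as the nearest start, lay 20 further reproducible sites of Hes1, the closest at 106115 bp with scores of 61, 46 and 34, and 5 of Hey2, the closest at 137515 bp with scores of 104, 95 and 94. The latter scored above the best distal site of Hey2 within the limit in replicates 1 and 2 and below it in replicate 3.

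Replicate 3 ranked the distal sites lower than both other replicates at 14 of 28 Hes1 sites, 7 of 12 Hey1 sites, 6 of 10 Hey2 sites, 4 of 6 Heyl sites and the Hes6 site, and at neither Hes5 site. Over all 86138 reproducible distal sites the share was 70.4%. In these comparisons each site was ranked among all distal peaks of the same replicate. The median percentile of Hes1 sites was 87.9, 90.8 and 82.7 and that of Hey2 sites 56.1, 60.1 and 38.6, beside 73.7, 72.2 and 57.04 over all genes. The peak total and the macrophage markers differ in the same replicate, as given above.

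Motifs were searched on both strands in the central 150 bp of each distal site. The RBPJ core TGGGAA was found in 17 of the 59 member sites (28.8%), beside 17.1% of all 86138. The members differed. A core was in 5 of 12 sites at Hey1, 3 of 6 at Heyl and 2 of 2 at Hes5. It was in 6 of 28 at Hes1, 1 of 10 at Hey2 and not in the site of Hes6. The longer GTGGGAA, every match of which contains a core, was in 8 (13.6%), beside 4.24%. Among the Hes1 sites with a core were those 56270, 40400 and 1160 bp upstream. No RBPJ pair, with TGGGAA and TTCCCA facing each other over 15 to 19 bases, was found in the printed promoter windows of Hes5, Hes6 and Hey2. None was found in the distal sites of the members either, and 0.0232% of all distal sites held one. The promoters of Hes1, Hey1 and Heyl were not searched.

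The other motifs stood on either side of their share in all distal sites. The SOX match ACAANG was in 21 member sites (35.6%), 13 of them at Hes1, beside 34.1%. The AP-1 match TGANTCA was in 8 (13.6%), beside 20.6%, and the TEAD match GGAATG in 11 (18.6%), beside 18.99%. The N-box CACNAG, to which HES proteins bind, was in 19 (32.2%), beside 33.5%. Of the E-boxes bound by HES and HEY proteins, CACGTG was in 3 (5.08%), beside 2.34%, and CACGCG in none, beside 1.24%. The small numbers leave little to compare for the remaining motifs. The SP/KLF match GGGCGG was in 7 (11.9%), beside 6.50%, the proneural E-box CAGCTG in 9 (15.3%), beside 13.9%, and the CAAT box CCAAT in 9 (15.3%), beside 20.5%. TATAAA was in 1, beside 4.37%, and the CRE match TGACGT and the NFI match, TTGGC and GCCAA with 5 bases between, were in none, beside 2.19% and 0.0929%. Sites of a gene share its base composition and are not independent, so these shares are descriptions.

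Of 52 other genes of the pathway 49 had a reproducible promoter site, beside 67.1% of all genes. Their median was 6 distal sites, against 8 for the members and 2 over all genes. The genes without a reproducible promoter site were Hes2, Hes7 and Neurod1. Hes7, the oscillator of the somite clock, had no promoter peak in any replicate, Hes2 had none in replicate 2 and scores of 46 and 54 in the others, and Neurod1, a proneural factor, had a score of 25 in replicate 1 alone. Among the other HES-related genes distal sites went from 1 at Hes2 to 16 at Bhlhe40, and 4 of 6 had a reproducible promoter site.

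All 4 receptors and all 5 ligands had a reproducible promoter site, beside 67.1% of all genes. Distal sites were most numerous at Notch1 with 23 and at Jag1 with 18, and fewest at Notch4 with 3 and at Dll3 with 1. All 10 genes of the nuclear complex and its feedback had one as well, with 38 distal sites at the coactivator Maml3, 28 at Rbpj and 1 each at Rfng and Numbl. The number at Rbpj equals that at Hes1, in 275705 bp against 198000 bp.

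All 7 genes of receptor cleavage had a reproducible promoter site, beside 67.1% of all genes. Their distal sites went from 0 at Ncstn, Psenen and Aph1a to 5 at Adam10 and Psen2. Among 10 corepressors and partners, all with a reproducible promoter site, Tle3 had 36 distal sites and Hdac1 none. Of 10 genes that HES or HEY proteins are known to repress, 9 had a reproducible promoter site, and distal sites went from 0 at Neurod4 to 9 at Neurod1 and at the cell cycle inhibitor Cdkn1c. The median promoter score of these repressed genes was 81, 60 and 82, and that of the members 135, 132.5 and 125.5. Other lists stood on either side, the ligands at 64, 54 and 85 and the cleavage genes at 143, 140 and 130. Medians were taken over genes with a peak, so Neurod1 entered in replicate 1 alone. Within the repressed list Cdkn1b scored 135, 139 and 131.

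**Figure D5:**
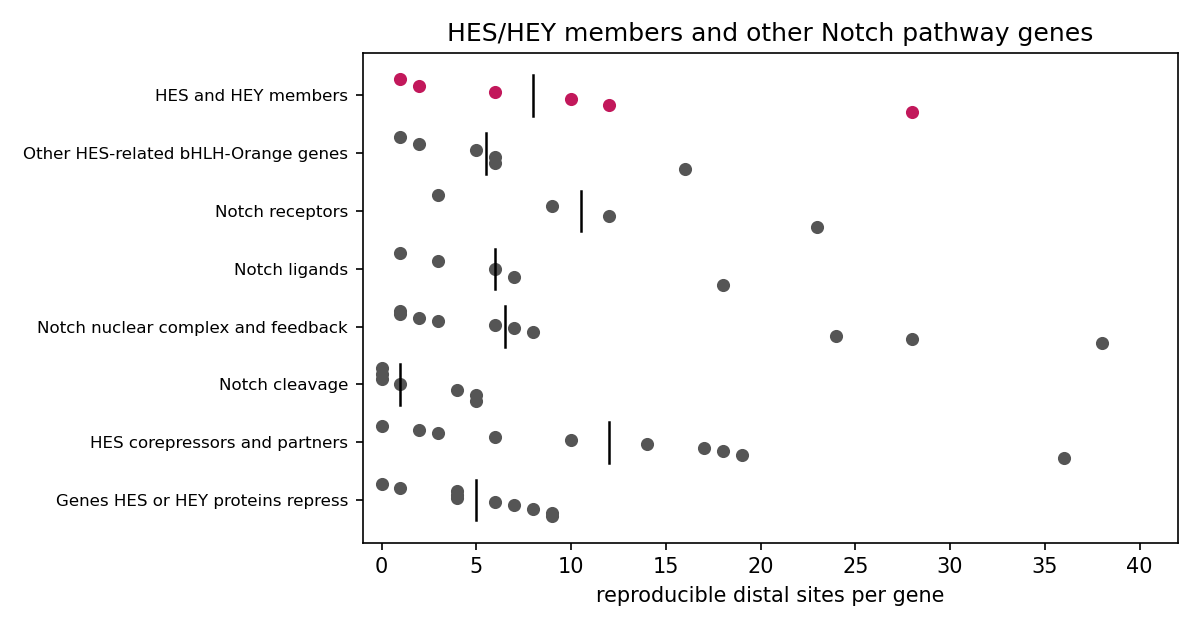
Reproducible distal sites per gene (horizontal axis) for the HES and HEY members and 7 lists of other pathway genes (rows); points are genes and vertical lines medians. The members go from 1 to 28 with a median of 8, the cleavage genes from 0 to 5, and the nuclear complex reaches 38 at Maml3.

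Among these 52 genes, likeness to a member was measured as the summed difference over 6 percentiles, those of promoter score and of distal peak number in each of 3 replicates, where 0 would be the same profile. Id2, an inhibitor of bHLH factors, was most like Hes1 at 28.8, with promoter scores of 143, 141 and 133 and 34, 36 and 25 distal peaks. Id4 was most like Hey2 at 26.1, with 144, 141 and 144 and 25, 24 and 20. Nrarp, a Notch feedback inhibitor, was most like Hey1 at 43.0, and Bhlhe22 most like Heyl at 41.8. The closest to Hes5 was Mfng at 57.2 and to Hes6 Adam17 at 82.5, larger sums than those of Hes1 and Hey2. Percentiles move in large steps where counts are low, so these sums do not order how alike the counts are. Adam17 had 3, 4 and 1 distal peaks against 2, 1 and 1 at Hes6, while Hes1 had 61, 65 and 33 against those of Id2 above.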

How the data were processed

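DNase-seq was measured in 3 replicates of 1 group. For each library the authors deposited narrow peaks of 150 bp with a score from 1 to 150, whose meaning is not stated, and wider hotspots with a −log10 q capped at 100. Per the deposited descriptions each list was made from its own library plus 1 further file, on mm10, with no pooling. Which aligner and caller were used is not given in the sources used here.

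Repeated peaks were dropped (21, 20 and 23), and peaks on autosomes and X were merged where they overlapped by 1 bp or more. A region with a peak in all 3 replicates is reproducible (145262 regions), and its score in a replicate is that of its strongest peak. Distances run from the edge of a peak to start sites of protein-coding transcripts in GENCODE M21. Scores were used to describe and rank peaks within a list, and percentiles were taken over genes or peaks of the same replicate. Sequences come from RefSeq, GRCm38.p6. Other columns with values of samples numbered 0. The scripts (Python 3.11.15, pandas 2.3.3) were tested on simulated data.

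The members, lists and settings were chosen with earlier results of these data known, and no test over the lists was run. Named are all members, their strongest, nearest and farthest distal sites, list genes without a promoter peak in some replicate, those with the most or fewest distal sites in their list, and the gene most like each member. Rbpj, Hes1 sites other than these and the sites beside the distance limits were named after their values were seen. Alternatives changed the peak threshold, the number of peaks, the overlap, the feature, the replicates, the promoter window, the distance limit and the start sites.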

Additional observations from a re-analysis of the deposited data

How the results depend on the processing

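Every member kept a reproducible promoter site under each of the 10 alternatives tried. The promoter window of 2500 bp and the added start sites could not remove such a site. Leaving out a replicate asks for a peak in fewer replicates. The total of 59 distal sites was 39 with a limit of 50 kb and 24 with the nearest start site of any gene, and between 59 and 99 when a replicate was left out, the highest without replicate 3. The median of 8 per member was 3 with the strongest 50% of peaks, 3 with the nearest start site of any gene, and between 8 and 13 when a replicate was left out. A shorter limit, more start sites and fewer peaks lower the number by construction. Leaving out a replicate loosens the rule, and why the number rose most without replicate 3 was not tested. With 184322 peaks taken from each replicate, strongest first, the total was 55. Of 186 values recomputed, 165 stayed within the limits set and 21 moved. Each member has 1 start site of protein-coding transcripts. Scores from the start site farthest upstream alone, counted among the 165, therefore repeated the main ones and could not move. The limit was 1.5 times for a count, the SD between replicates for a score and the binomial interval for the motif share. Among the scores that moved, a promoter window of 2500 bp gave Hes5 scores of 106 and 96 in replicates 1 and 2. The start sites of noncoding transcripts and the motif window of 100 bp, with a share of 23.7% for the RBPJ core, were chosen after seeing the data. No paired analysis was possible because the series has 1 group. Read depth is unknown, so a missing peak cannot be told apart from a shallow library.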
